A study of Mus musculus with 2 samples.

Results

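The 9 genes described here encode the apolipoproteins Apoe, Apoa1, Apoa2, Apob, Apoc1, Apoc2, Apoc3, Apoc4 and Apoh. They were taken by symbol from the 32285 genes counted in liver non-parenchymal cells, and all 9 had a symbol in both feature lists. The genes were chosen by their CPM levels across marker-gated cell classes of these libraries, seen before the list was drawn up, so those levels are a description and carry no test. The study sequenced 2 groups of mice, each as 1 single-cell library: Mfap2+/+ mice (wild type, WT) and Mfap2-/- mice (knockout, KO). Mfap2 encodes the microfibril-associated glycoprotein MAGP-1 of the extracellular matrix. Both groups received carbon tetrachloride (CCl4), a hepatotoxin used to induce liver fibrosis, by intraperitoneal injection for 8 weeks, so no library without CCl4 was analysed here. The labels do not give the number, sex or age of the animals behind a library, the strain or how the allele was made. With 1 library per genotype, the genotype, the animal and the library cannot be told apart, no difference between the libraries was tested, and every interval below is a 95% interval of the counting error alone.

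Apolipoproteins are the protein part of lipoproteins, the particles that carry triglyceride and cholesterol in blood. Hepatocytes make most of the plasma apolipoproteins and secrete Apob-bearing particles, whereas macrophages, in the liver Kupffer cells among them, also make Apoe, with Apoc1 and Apoc2 as further products of macrophages that take up lipid. A hepatocyte that breaks during dissociation releases RNA that enters every droplet, so a UMI (unique molecular identifier, 1 captured transcript) of a hepatocyte gene in a lymphocyte is no evidence that the lymphocyte made it.

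On GRCm38, the mouse build of the reference annotation, 4 members lie side by side on the minus strand of chromosome 7: Apoe at chr7:19696109-19699188, Apoc1 at chr7:19689481-19692660, Apoc4 at chr7:19678083-19681479 and Apoc2 at chr7:19671579-19677941. The readthrough gene Gm44805 (chr7:19671584-19681423, same strand) covers most of Apoc2 and Apoc4 and has no entry in the feature lists, so how reads from it were assigned is not known and counts of Apoc2 and Apoc4 are uncertain to that extent. Apoa1 (chr9:46228580-46230466, plus strand) and Apoc3 (chr9:46232933-46235636, minus strand) are neighbours on chromosome 9. Apoa2 (chr1:171225054-171226379), Apoh (chr11:108343354-108414396) and Apob (chr12:7977648-8016835) stand alone, each on the plus strand.

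RefSeq promoter windows on GRCm38.p6 matched 7 of the 9 members. The 4 shown here put the upstream bases of 2 genes with high levels in myeloid cells (Apoe, Apoc2) beside those of 2 genes that hepatocytes are known to make and that were low in myeloid cells (Apoa2, Apob). They run 5′ to 3′ on the gene's own strand, and capitals mark matches to the motifs searched.
Apoe (chr7:19699189-19699438, minus strand): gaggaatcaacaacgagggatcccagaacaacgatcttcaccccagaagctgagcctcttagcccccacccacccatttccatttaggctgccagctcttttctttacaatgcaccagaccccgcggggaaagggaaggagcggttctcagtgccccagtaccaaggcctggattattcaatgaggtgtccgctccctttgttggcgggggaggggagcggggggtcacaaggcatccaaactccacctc
Apoc2 (chr7:19677942-19678191, minus strand): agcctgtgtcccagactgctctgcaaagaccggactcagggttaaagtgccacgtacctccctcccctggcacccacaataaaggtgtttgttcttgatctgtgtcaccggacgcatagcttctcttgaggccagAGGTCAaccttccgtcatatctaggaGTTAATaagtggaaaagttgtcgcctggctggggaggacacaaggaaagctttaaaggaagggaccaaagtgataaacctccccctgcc
Apoa2 (chr1:171224804-171225053, plus strand): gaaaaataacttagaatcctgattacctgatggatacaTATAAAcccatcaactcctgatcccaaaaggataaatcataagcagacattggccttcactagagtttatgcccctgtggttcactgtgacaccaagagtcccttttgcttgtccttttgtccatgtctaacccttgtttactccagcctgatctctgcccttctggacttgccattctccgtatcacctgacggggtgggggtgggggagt
Apob (chr12:7977427-7977647, plus strand): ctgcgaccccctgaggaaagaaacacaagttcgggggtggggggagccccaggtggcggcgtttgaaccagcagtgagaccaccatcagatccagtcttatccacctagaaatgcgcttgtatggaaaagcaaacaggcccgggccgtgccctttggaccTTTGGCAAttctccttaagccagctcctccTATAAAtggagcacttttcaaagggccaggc
Apoa2 and Apob held the TATA box letters TATAAA, which 12.4% of 32851 windows of 250 upstream bases held on either strand. Relative to the RefSeq start site, the match lay at -212 to -207 in Apoa2 and at -60 to -55 in Apob. The Apob print stops at the annotated gene start and shows 221 of the 250 bases searched. Apob also held TTGCNNAA, a C/EBP-type motif present in 9.56% of the windows, here as its reverse complement. Apoc2 held AGGTCA, the half-site of many nuclear receptors (14.02% of windows), and GTTAAT, an HNF1 half-site (6.43%). None of the 4 held CAAAGTCC (HNF4 type, 1.20% of windows) or GGAAGT (ETS type, 19.7%), and Apoe held no match to any of the 6 motifs. A match is a run of letters and not a measured binding site, and no match says only that these letters are not in this window.

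The libraries held 82499307 UMIs in 11783 barcodes (WT) and 118226367 UMIs in 12872 barcodes (KO), with medians of 4685 and 6511 UMIs, and 40 barcodes occurred in both. After filtering, 10336 WT and 11428 KO cells remained, in which Mfap2 had 211 and 2 UMIs. Cells were assigned to classes by marker genes that include no member. Each class is named after its gate, and 3335 WT cells (32.3%) and 3660 KO cells (32.0%) fell into none. The hepatocyte gate held only 16 WT and 44 KO cells, with medians of 1029 and 2252 UMIs. The monocyte gate (534 and 477 cells) was led by Prtn3, Elane and Mpo, granule genes of myeloid progenitors, beside the monocyte genes F13a1, Vcan and Ly6c2. One of its gate genes, haptoglobin (Hp), is also made by hepatocytes. Of 4 further B cell genes not used in the gate, 2 were at least 2-fold above the other cells. Levels are given as CPM, the UMIs of a gene per 1000000 UMIs of the class.

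Apoe, the ligand through which lipoproteins bind the LDL receptor family, was highest in macrophages, at 29684 CPM (29605 to 29763) in WT and 29492 CPM (29416 to 29568) in KO. Leaving out the gated hepatocytes, cholangiocytes followed with 6968 and 6706 CPM and mesenchymal cells (stellate cells and fibroblasts) with 5085 and 4959 CPM. Endothelial cells came next with 2923 and 2860 CPM. Taking the span of both libraries with their intervals, these 4 classes overlapped neither each other nor the next class. From patrolling monocytes (2010 and 2146 CPM) down to cDC1, the cross-presenting dendritic cells (1269 and 1582 CPM), the span of each class overlapped that of its neighbour in the order of the 13 classes other than hepatocytes. B cells, which are not known to make Apoe, read 1764 CPM (1724 to 1805) in WT and 1797 CPM (1769 to 1825) in KO. An Apoe UMI was present in 99.3% and 99.4% of B cells (medians of 3387 and 4767 UMIs per cell) against 99.7% and 99.9% of macrophages (medians of 9752 and 12343), so the share of cells with a UMI barely separated them. After thinning each cell to 1000 UMIs, which left out 32 WT and 34 KO B cells and 119 WT and 65 KO macrophages, the shares were 83.2% and 81.2% in B cells and 99.5% and 99.7% in macrophages.

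**Figure D1:**
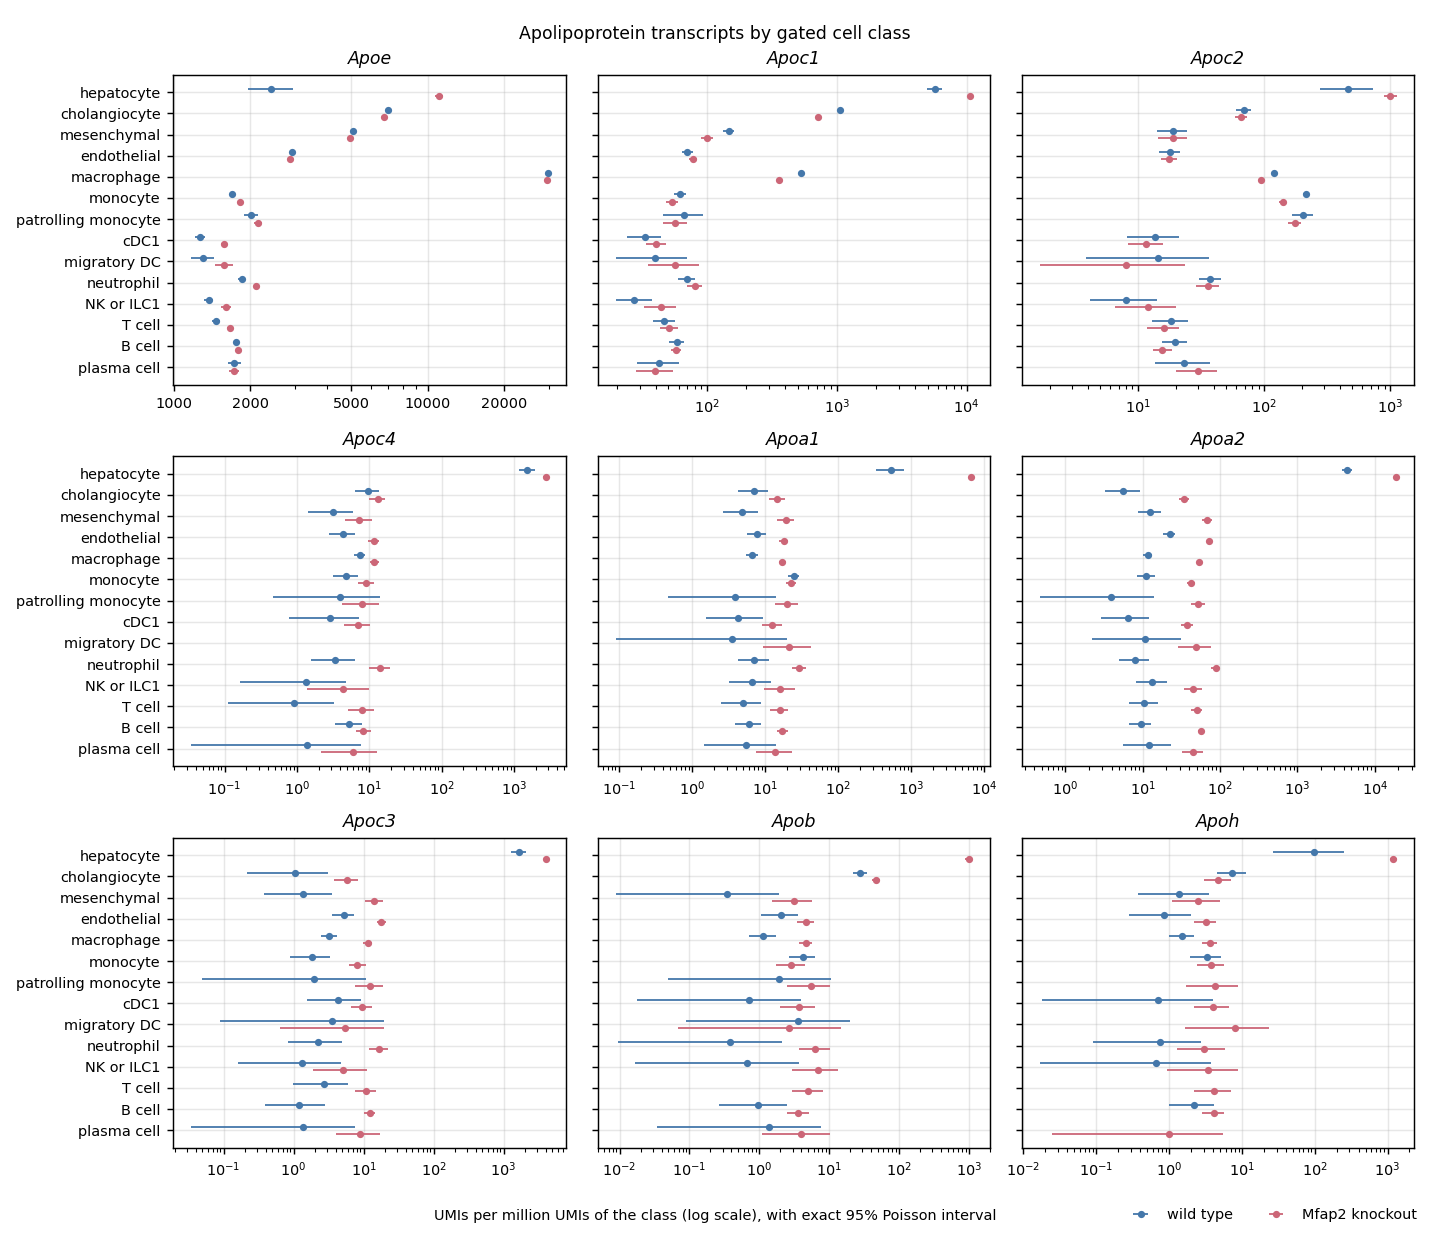
Level of the 9 apolipoprotein genes (CPM, log scale) in 14 marker-gated cell classes of the WT and KO libraries, with 95% Poisson intervals. Apoe stood highest in macrophages, at 29684 CPM in WT and 29492 CPM in KO, Apoc2 was high in both monocyte classes, and every member except WT Apob had UMIs in the gated hepatocytes.

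To set the members against hepatocyte RNA, their UMIs were divided by the summed UMIs of 14 secreted plasma protein genes of hepatocytes (among them albumin, transthyretin and the fibrinogen chains), none of them a gate gene. This hepatocyte reference read 112 CPM in WT and 271 CPM in KO B cells, 117 and 257 CPM in macrophages, and 15948 and 86944 CPM in the gated hepatocytes. Apoe gave 15.1 UMIs per 100 reference UMIs in WT hepatocytes and 12.7 in KO hepatocytes, but 1574 and 663 in B cells. The B cell ratio was thus far above that of the gated hepatocytes, whose Apoe UMIs came mostly from 5 cells, and the source of Apoe UMIs in B cells was not tested. In macrophages it gave 25442 (24386 to 26556) and 11454 (11141 to 11777), which was 16.2 times the B cell ratio in WT (14.6 to 17.9) and 17.3 times in KO (16.4 to 18.2). At the B cell ratio, 93.8% of the WT and 94.2% of the KO macrophage level would be in excess.

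The complement chains C1qa, C1qb and C1qc, which macrophages make, served as a second reference, chosen after the first results were seen. C1q read 9604 and 9207 CPM in macrophages and 624 and 578 CPM in B cells. Apoe stood at 309 UMIs per 100 C1q UMIs in WT macrophages and 283 in WT B cells, and at 320 and 311 in KO. Neutrophils (263 and 315), T cells (266 and 313) and NK or ILC1 cells (268 and 329) lay close to the same ratio. Mesenchymal cells, with 873 (830 to 919) in WT and 705 (675 to 737) in KO, and endothelial cells, with 435 and 460, stood above it, and so did cholangiocytes with 1664 and 1525. Patrolling monocytes (348 and 388) and the monocyte gate (341 and 343) were above B cells by less. An expectation built from both references, hepatocyte UMIs at the ratio of the gated hepatocytes plus C1q UMIs at the ratio of macrophages, came to 1945 CPM of Apoe in WT B cells and 1885 CPM in KO B cells. The observed Apoe was 0.907 and 0.953 times that value in B cells, 1.08 and 1.05 times in the monocyte gate, 1.39 and 1.41 times in endothelial cells, and 2.80 and 2.17 times in mesenchymal cells. Hepatocyte-gate Apoe itself reached 2411 CPM in WT and 11069 CPM in KO, with 61.6% and 70.1% of its UMIs in the 5 richest cells.

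**Figure D2:**
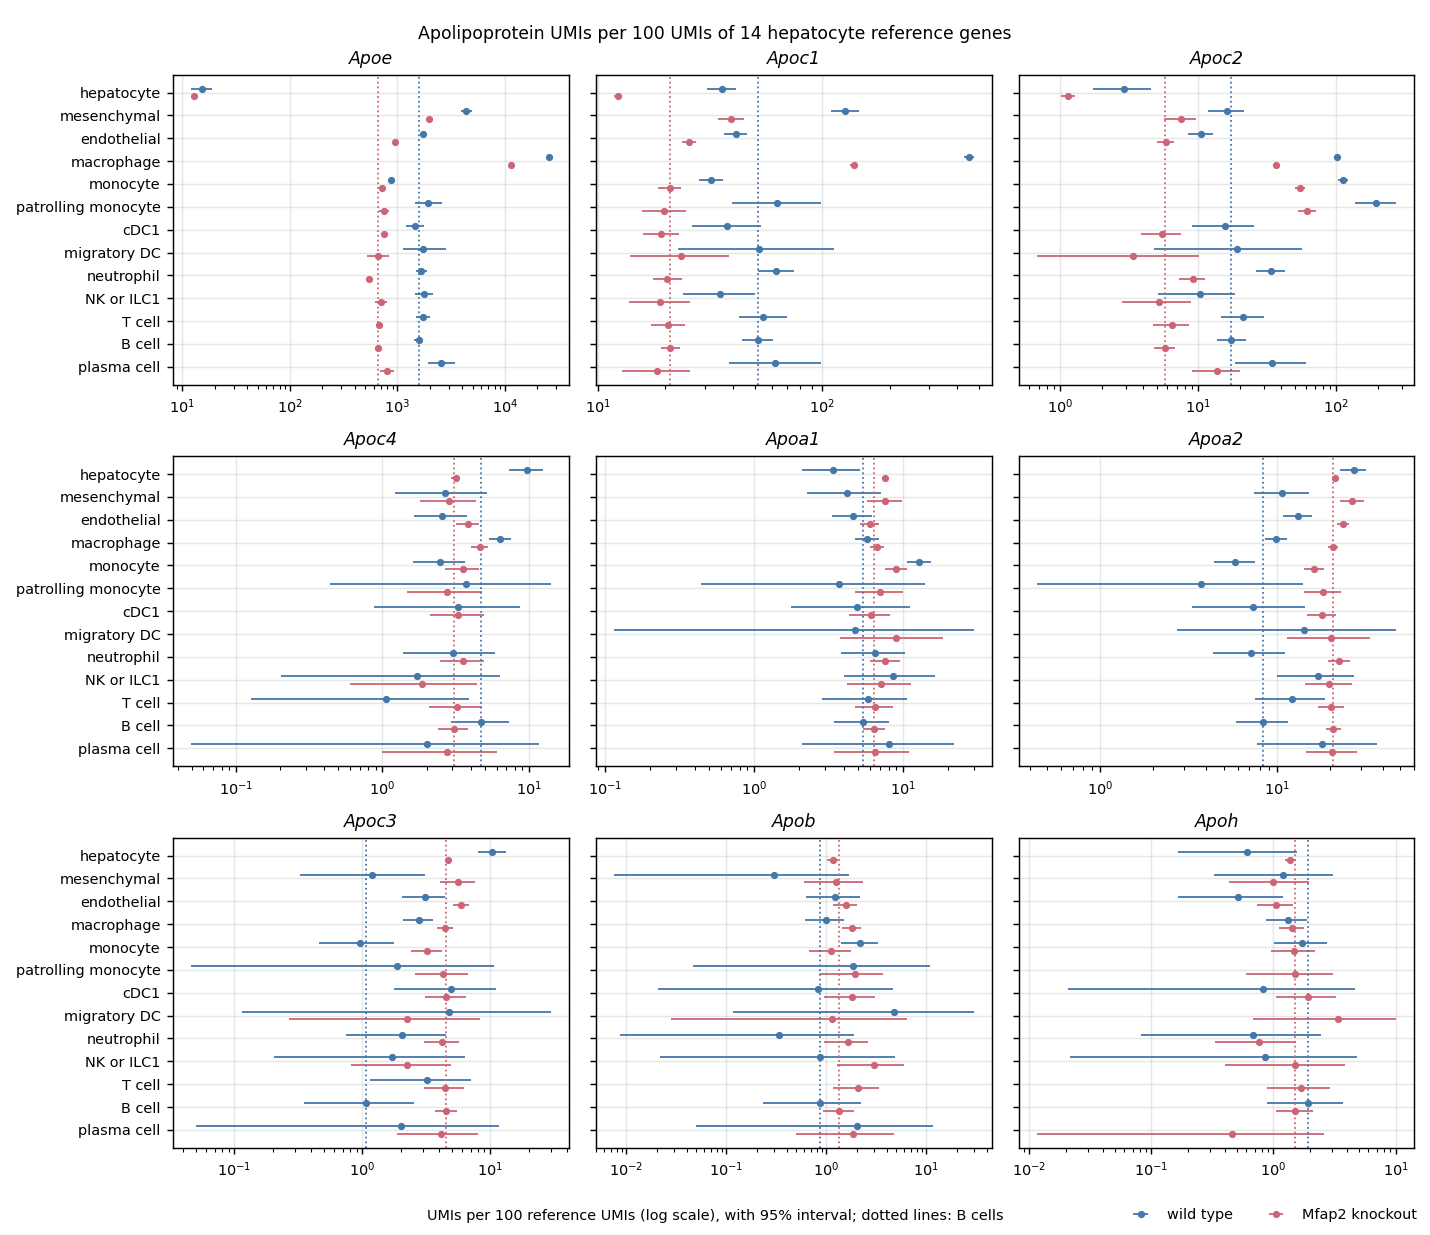
UMIs of each member per 100 UMIs of the hepatocyte reference (log scale, 95% intervals) in 13 cell classes, with the B cell value dotted. Apoe (25442 in WT, 11454 in KO), Apoc1 and Apoc2 stood above the B cell line in macrophages, whereas in KO Apoa1, Apoa2, Apoc3 and Apoh had macrophage intervals that spanned it.

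Macrophages were divided by the Kupffer genes Clec4f, Vsig4 and Timd4 and by Gpnmb, Mmp12 and Atp6v0d2, genes of lipid-handling macrophages in injured liver. A named subset needed at least 3 UMIs of its genes, so the division depended on depth. Median UMIs in WT and KO were 11718 and 13534 in the Kupffer subset and 10612.5 and 14454 in the Gpnmb-Mmp12 subset. The remaining macrophages had 5061 and 7826. Apoe read 37807 CPM in WT and 32879 CPM in KO in the Gpnmb-Mmp12 subset, 23252 and 27885 CPM in the Kupffer subset, and 27459 and 24610 CPM in the remaining macrophages. The Gpnmb-Mmp12 subset was highest in both libraries. The Kupffer subset was the lowest of the 3 in WT and above the remaining macrophages in KO. Per cell, the median Apoe count per 10000 UMIs was 373 and 322 in the Gpnmb-Mmp12 subset, 210 and 242 in the Kupffer subset, and 16.8 and 17.03 in B cells.

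**Figure D3:**
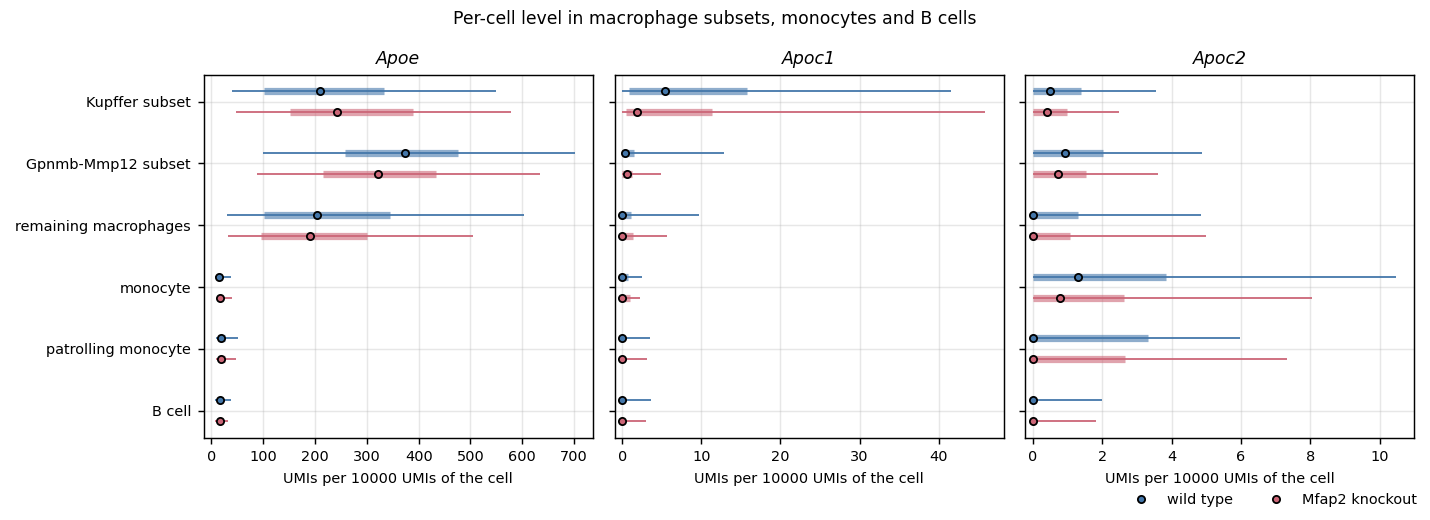
Apoe, Apoc1 and Apoc2 UMIs per 10000 UMIs of each cell in macrophage subsets, monocyte classes and B cells, drawn as the median, the quartiles and the 5% to 95% range over cells of each library. The median for Apoe was 373 (WT) and 322 (KO) in the Gpnmb-Mmp12 subset against 16.8 and 17.03 in B cells.

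Apoc1, a small apolipoprotein that inhibits lipoprotein uptake and the plasma enzyme CETP where that is present, was highest in the Kupffer subset among the macrophages. It read 1052 CPM (1029 to 1076) in the WT and 897 CPM (873 to 921) in the KO Kupffer subset, against 225 and 133 CPM in the Gpnmb-Mmp12 subset and 112 and 97.6 CPM in the remaining macrophages. Macrophages together read 528 and 357 CPM and B cells 57.9 and 57.1 CPM. Relative to the hepatocyte reference, the Kupffer subset stood at 17.9 times the B cell ratio in WT (14.998 to 21.3) and 16.9 times in KO (15.1 to 19.0). Against C1q, B cells had 9.28 and 9.89 Apoc1 UMIs per 100 C1q UMIs. The Kupffer subset, with 10.6 and 8.80, stood above B cells in WT and below them in KO. Macrophages together, with 5.49 and 3.88, stood below B cells in both libraries. The cells of the Kupffer subset differed widely, with a median of 5.36 and 1.90 per 10000 UMIs and a 95% quantile of 41.6 and 45.9. At 1000 UMIs per cell, 47.0% of WT and 36.1% of KO cells of the Kupffer subset had an Apoc1 UMI, against 6.77% and 5.81% of B cells (81.5% and 76.6% against 17.8% and 23.6% before thinning, at medians of 11718 and 13534 against 3387 and 4767 UMIs). Mesenchymal cells read 147 and 99.6 CPM. The gated hepatocytes were the highest of all classes, at 5698 CPM in WT and 10682 CPM in KO.

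Apoc2, the activator that lipoprotein lipase needs to hydrolyse triglyceride, had another order. The gated hepatocytes were highest, at 463 CPM in WT (19 UMIs) and 997 CPM in KO (288 UMIs). The order given next is that of the other classes. Patrolling monocytes read 202 CPM (165 to 245) in WT and 175 CPM (155 to 197) in KO, and the monocyte gate 215 CPM (202 to 227) and 140 CPM (131 to 149), so the intervals of the 2 classes overlapped in WT but not in KO. Macrophages followed with 119 CPM (114 to 124) and 94.3 CPM (90.1 to 98.7), and cholangiocytes with 68.7 and 65.5 CPM. Neutrophils read 37.3 and 35.7 CPM, and B cells 19.5 CPM (15.5 to 24.3) and 15.6 CPM (13.1 to 18.4). The Gpnmb-Mmp12 subset (138 and 111 CPM) was above the Kupffer subset (97.0 and 74.0 CPM) in both libraries. At 1000 UMIs per cell, 19.4% of WT and 13.95% of KO cells of the monocyte gate had an Apoc2 UMI, against 1.69% and 1.86% of B cells (63.9% and 59.7% against 6.41% and 7.35% before thinning, at medians of 8202 and 10884 against 3387 and 4767 UMIs). The 5 richest cells held 8.73% and 9.86% of the Apoc2 UMIs of the monocyte gate.

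Against the hepatocyte reference, Apoc2 reached 6.39 times the B cell ratio in the WT (4.96 to 8.31) and 9.49 times in the KO monocyte gate (7.83 to 11.6), 11.1 and 10.6 times in patrolling monocytes, and 5.86 (4.58 to 7.57) and 6.38 times (5.32 to 7.70) in macrophages. In the WT monocyte gate this multiple depended on the gate: without Hp among its markers it was 13.6, and with doublets kept 3.89. With hepatocyte enzymes as the reference it was lower in both libraries, at 2.11 in WT and 2.90 in KO. These enzymes are the gate markers of hepatocytes. The gate itself limits their UMIs in cells of every other class, so these multiples are not free of the gate. Against C1q, the monocyte gate held 43.2 and 26.3 Apoc2 UMIs per 100 C1q UMIs and patrolling monocytes 35.0 and 31.6, while macrophages held 1.24 and 1.02, below the 3.13 and 2.69 of B cells. Both monocyte classes thus stood above B cells on either reference, and macrophages only on the hepatocyte reference. Measured Apoc2 was 18.2 and 16.7 times the expectation from both references in the monocyte gate and 19.8 and 19.6 times in patrolling monocytes, against 1.78 and 1.72 times in B cells. With the hepatocyte ratio taken from a cluster of 40 WT and 73 KO cells in place of the gate, the monocyte values were 8.27 and 14.4 and the patrolling monocyte values 11.3 and 16.8.

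**Figure D4:**
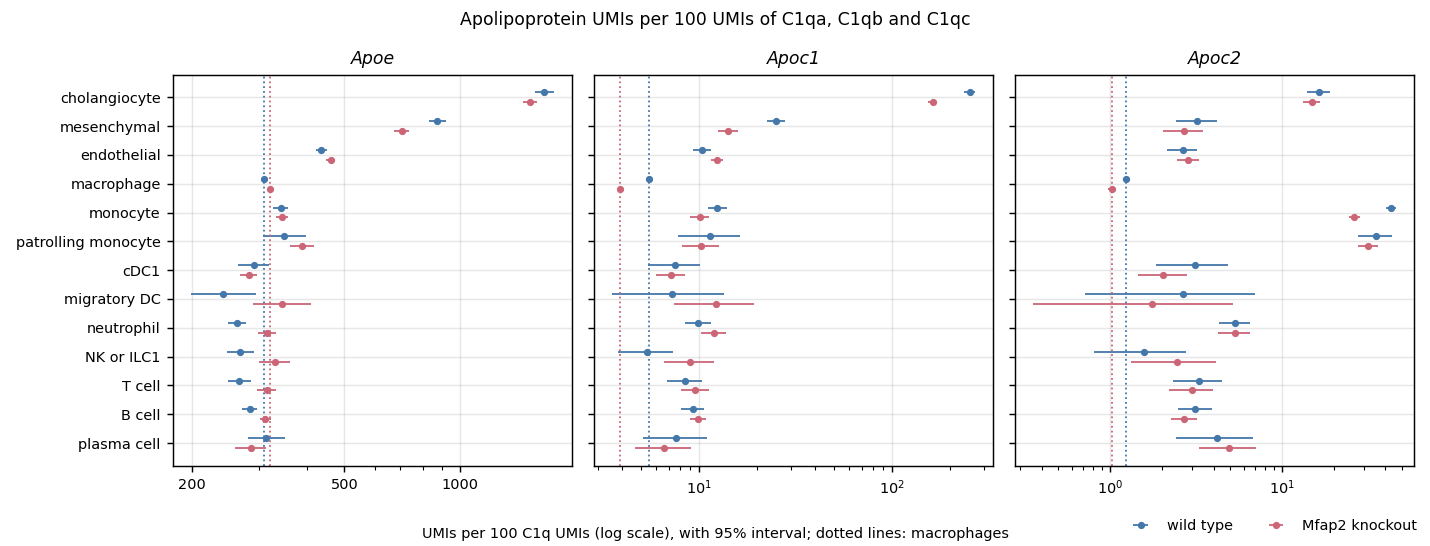
Apoe, Apoc1 and Apoc2 UMIs per 100 C1q UMIs (log scale, 95% intervals) by cell class and library, with the macrophage value dotted. B cells (283 in WT, 311 in KO) lay near the macrophage line for Apoe (309 and 320), and both monocyte classes stood far above it for Apoc2.

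The remaining 6 members, Apoa1 and Apoa2 (the main proteins of high-density lipoprotein), Apob (the structural protein of very-low-density lipoprotein), Apoc3 (an inhibitor of triglyceride clearance), Apoc4 and Apoh (beta-2-glycoprotein I), had similar ratios to the hepatocyte reference in gated hepatocytes and in most other classes of the KO library, but not in WT or in cholangiocytes. Apoa2 gave 21.5 UMIs per 100 reference UMIs in KO hepatocytes, and from 16.3 to 26.9 in the 11 KO classes other than macrophages, cholangiocytes and hepatocytes. Apoa1 gave 7.55 in KO hepatocytes and 5.95 to 8.99 in those classes. Apoc3 gave 4.67 in KO hepatocytes and 2.24 to 5.95, Apob 1.15 and 1.12 to 2.99, Apoc4 3.17 and 0 to 3.83, and Apoh 1.38 and 0.459 to 3.37. The Apoh extremes rest on 1 UMI in plasma cells and 3 in migratory DC, and the lowest Apoc4 ratio on 0 UMIs. The KO hepatocyte ratios rest on few cells. For these 6 genes, the 5 richest of the 44 cells held from 64.4% (Apoc3) to 93.1% (Apob) of the UMIs. The interval against B cells excluded equality in 3 of the 11 KO classes for Apoa2, 2 for Apoc3, 1 for Apoa1 and 0 for the other 3 genes. In KO cholangiocytes Apoa2 gave only 0.924 and Apoa1 0.396. In KO the macrophage ratio over the B cell ratio was 1.05 for Apoa1 (0.856 to 1.28), 1.002 for Apoa2 (0.891 to 1.13), 0.980 for Apoc3 (0.772 to 1.25), 0.941 for Apoh (0.620 to 1.45) and 1.34 for Apob (0.883 to 2.08). These 5 intervals all include equality. Apoc4 gave 1.502 (1.14 to 1.99) in KO, an interval that excluded equality, and 1.34 (0.839 to 2.23) in WT, an interval that included it. Apoc4 shares the readthrough gene with Apoc2, and any part of that gene in the Apoc4 ratio was not tested. In WT the macrophage ratio over the B cell ratio was 1.07 for Apoa1 (0.680 to 1.73), 1.19 for Apoa2 (0.828 to 1.74), 1.14 for Apob (0.381 to 4.58), 0.674 for Apoh (0.307 to 1.64) and 2.56 for Apoc3 (1.03 to 8.21), so the Apoc3 interval excluded equality there. The WT hepatocytes also stood apart from the other WT classes. Apoa2 gave 27.3 per 100 reference UMIs (23.0 to 32.3) in them and 8.39 (5.89 to 11.6) in WT B cells, Apoc3 10.4 (7.97 to 13.3) and 1.08 (0.348 to 2.53), and Apoc4 9.62 (7.31 to 12.5) and 4.73 (2.94 to 7.25). In WT, levels of these genes outside hepatocytes thus did not match the ratio of the 16 gated hepatocytes, and in WT cholangiocytes Apoa2 gave 0.118.

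These genes were low in the gated classes other than hepatocytes, and their levels there differed between libraries. Ungated cells read higher, with 142 and 124 CPM of Apoa1 and 129 and 268 CPM of Apoa2. They held more of these UMIs than the hepatocyte gate. For Apoa1 the counts were 3018 against 22 in WT and 3769 against 1896 in KO. For Apoa2 they were 2723 against 179 and 8176 against 5390. Apoa2 read 4358 CPM in WT and 18650 CPM in KO hepatocytes, 11.6 and 54.1 CPM in macrophages, 9.40 and 56.8 CPM in B cells, and 7.92 and 88.7 CPM in neutrophils. Apoa1 read 536 and 6561 CPM in hepatocytes, 6.69 and 17.3 CPM in macrophages, and 6.03 and 17.4 CPM in B cells. Apoc3 read 1656 and 4059 CPM in hepatocytes against 3.21 and 11.4 CPM in macrophages. Macrophages and B cells were thus nearly level for these 3 genes in KO. Apoc4 read 1534 and 2754 CPM in hepatocytes, 7.39 and 11.8 CPM in macrophages and 5.30 and 8.29 CPM in B cells. Apoh read 97.4 and 1197 CPM in hepatocytes and 1.52 and 3.66 CPM in macrophages. Apob had 0 UMIs in the 16 WT hepatocytes, where 3 counts would be 73.0 CPM and the 95% upper limit is 89.8 CPM, and read 1000 CPM in the KO hepatocytes. Its highest level outside hepatocytes was in cholangiocytes, at 27.8 CPM (22.0 to 34.7) in WT and 47.1 CPM (41.2 to 53.6) in KO, with 1.14 and 4.62 CPM in macrophages. In the WT monocyte gate Apoa1 read 24.6 CPM, and 5 cells held 79.9% of its UMIs.

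Cholangiocytes, the bile duct epithelium (110 WT and 144 KO cells), stood apart from the other classes because their hepatocyte reference was itself high, at 4786 CPM in WT and 3719 CPM in KO. They read 1057 CPM of Apoc1 in WT (1019 to 1095) and 714 CPM in KO (691 to 739), and 68.7 and 65.5 CPM of Apoc2. A few cells carried much of this: the 5 richest held 35.8% and 29.5% of Apoe, 39.9% and 34.2% of Apoc1, and 43.1% and 40.9% of Apoc2 UMIs. The median cell had 58.9 and 49.6 Apoe UMIs per 10000, above the 16.8 and 17.03 of B cells. The part of the high reference in these levels was not tested.

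The libraries were compared as the log2 ratio of KO over WT level, with 1 count added to each side. In macrophages Apoe differed by -0.01 (-0.01 to -0.00), Apoc1 by -0.56 (-0.61 to -0.52) and Apoc2 by -0.34 (-0.43 to -0.25). The hepatocyte-type members were higher in KO: Apoa1 by 1.36 (1.07 to 1.68), Apoa2 by 2.21 (2.0 to 2.43), Apob by 1.97 (1.32 to 2.78), Apoc3 by 1.81 (1.41 to 2.27), Apoh by 1.23 (0.62 to 1.95) and Apoc4 by 0.67 (0.37 to 0.99). The hepatocyte reference was higher by 1.14 (1.07 to 1.22) in the same cells. All 9 members had at least 20 UMIs there, 5 were past 2-fold higher in KO and 0 past 2-fold lower, where 6.26% of the 14479 genes with that many UMIs were past 2-fold higher, 0.96% lower and 7.22% either way. As a mean over cells Apoa1 was 0.87, below 2-fold. Since the members were chosen with these values known, nothing is read from that count.

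In B cells, 4 of the 9 members were past 2-fold higher in KO: Apoa1 by 1.48 (0.91 to 2.20), Apoa2 by 2.56 (2.12 to 3.1), Apob by 1.64 (0.42 to 3.87) and Apoc3 by 3.1 (2.08 to 5.0), beside a reference higher by 1.27 (1.13 to 1.42). This count moved with the processing: Apob was 0.61 when cells were thinned, Apoh was 1.38 thinned and 1.05 as a mean over cells, and without the 5 richest cells Apoc4 (1.09) and Apoh (1.54) also passed 2-fold. Among all genes in B cells 4.05% were past 2-fold higher in KO. Apoe (0.03, -0.01 to 0.07), Apoc1 (-0.02, -0.24 to 0.21) and Apoc2 (-0.34, -0.73 to 0.09) had intervals that include equality. In endothelial cells 6 of 9 members were past 2-fold higher, against 3.7% of genes, and the reference was higher by 0.84 (0.74 to 0.95). In the gated hepatocytes 7 of 9 members were past 2-fold higher, where 22.3% of genes were higher and 43.2% either way, with 16 cells on the WT side. The reference was itself higher there by 2.44 (2.33 to 2.56). Apoa1, Apob and Apoh lay above that value and the other members below it. The monocyte gate had a reference higher by only 0.42 (0.30 to 0.53), with Apoa1 at -0.10 (-0.45 to 0.24) and Apoa2 at 1.89 (1.5 to 2.33).

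**Figure D5:**
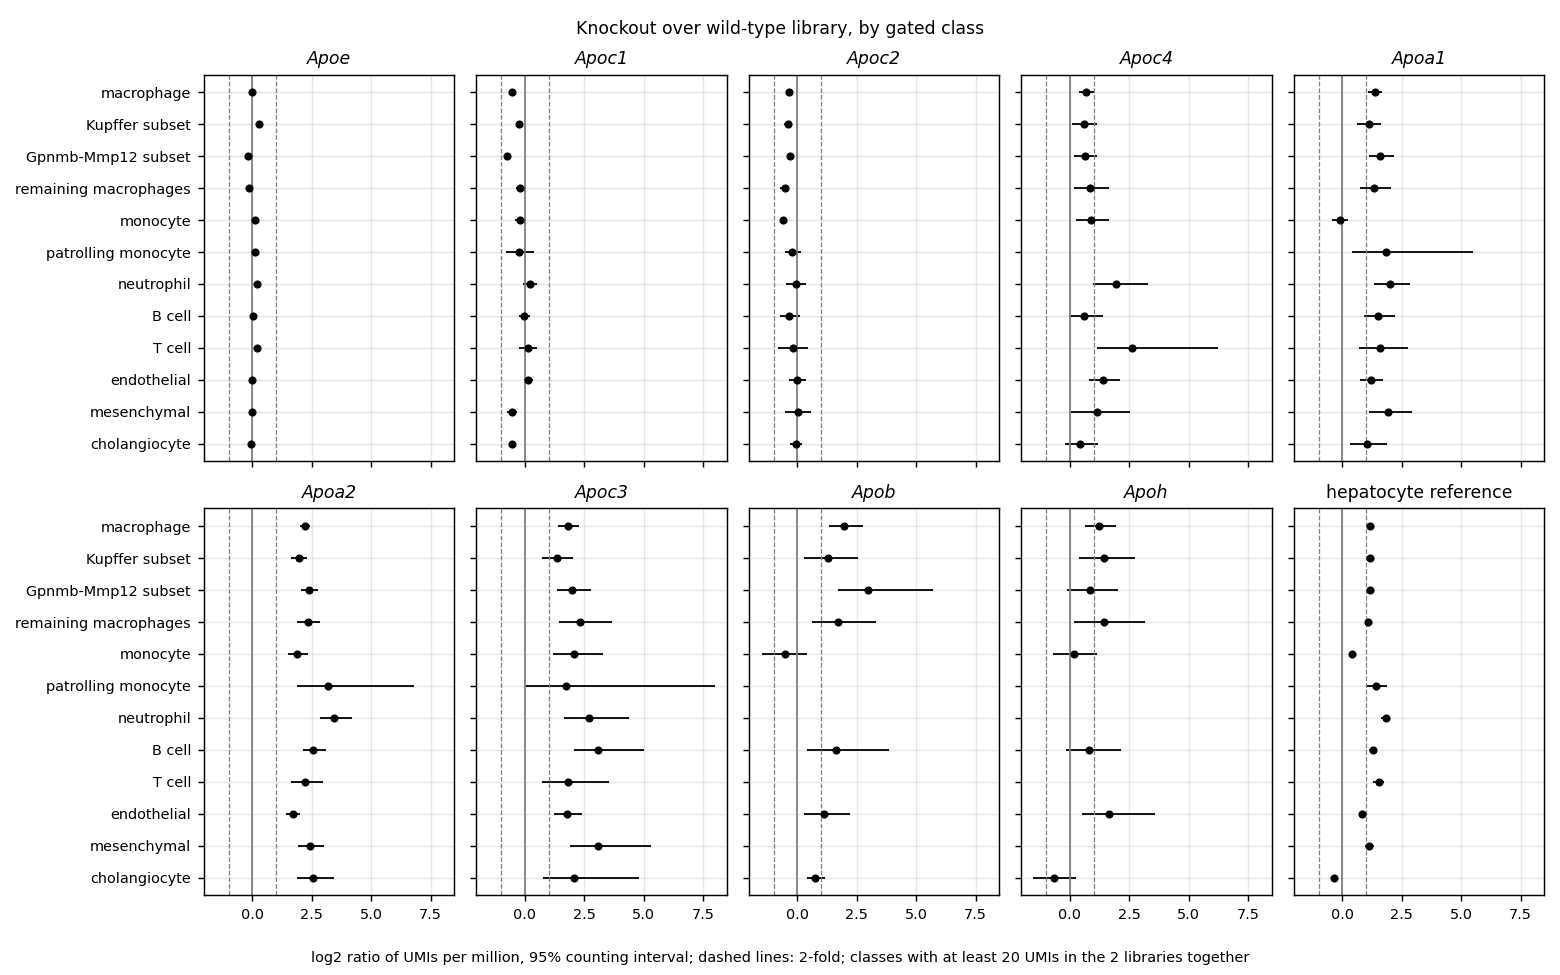
Log2 ratio of KO over WT level for the 9 members and the hepatocyte reference in 12 cell classes, with 95% counting intervals, where the summed UMIs reached 20. Apoa2 and the reference lay above 0 in macrophages (2.21 and 1.14) and B cells (2.56 and 1.27), while Apoe lay near 0 in both (-0.01 and 0.03).

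Within the macrophage subsets the small Apoe difference was composed of opposite ones. Apoe was higher in the KO Kupffer subset by 0.26 (0.25 to 0.27), and differed by -0.20 (-0.21 to -0.19) in the Gpnmb-Mmp12 subset and -0.16 (-0.17 to -0.15) in the remaining macrophages. Apoc1 differed by -0.23 (-0.28 to -0.18) in the Kupffer subset, -0.76 (-0.87 to -0.65) in the Gpnmb-Mmp12 subset and -0.20 (-0.40 to -0.01) in the remaining macrophages. The Kupffer subset, where Apoc1 was highest, made up 611 of 1881 WT and 445 of 1593 KO macrophages. The part of this mix in the differences of macrophages together was not tested. Apoc2 differed in the same direction in all 3: by -0.39 (-0.56 to -0.22) in the Kupffer subset, -0.32 (-0.45 to -0.19) in the Gpnmb-Mmp12 subset and -0.53 (-0.72 to -0.34) in the remaining macrophages. With every cell thinned to 1000 UMIs, where few UMIs of these genes remain, the following intervals include equality: Apoc2 differed by 0.0043 (-0.49 to 0.49) in the Gpnmb-Mmp12 subset, by 0.11 (-0.44 to 0.67) in the remaining macrophages and by -0.14 (-0.45 to 0.17) in macrophages together, and Apoc1 by 0.14 (-0.40 to 0.68) in the remaining macrophages. Outside macrophages, Apoc2 differed by -0.62 (-0.74 to -0.49) in the monocyte gate and -0.22 (-0.54 to 0.13) in patrolling monocytes, whose interval includes equality. Apoc1 differed by -0.56 (-0.77 to -0.35) in mesenchymal cells and -0.56 (-0.64 to -0.49) in cholangiocytes. None of these reached 2-fold. The cholangiocyte value of Apoc1 was unstable: it was -1.27 with a gate dominance of 5, past 2-fold, and -0.022 as a mean over cells. The median over all genes tested was 0.15 in macrophages. Scaling the macrophages by the median of ratios in place of the total moved every gene by -0.11, so that Apoe became -0.12.

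The genes whose levels across classes were most like those of a member were ranked by Pearson's r of log2(CPM + 10) over 26 points (13 classes in 2 libraries), among 4269 genes. The points share libraries and depth, and macrophages weigh heavily, so r is a description. For Apoe the leading genes were Igf1, a growth factor of liver macrophages and stromal cells (0.96), Fbxo32 (0.89), Lrp12 (0.89), Pdgfc (0.86) and the iron exporter Slc40a1 (0.86), which is also a macrophage gate gene. For Apoc2 they were the CSF-1 receptor Csf1r (0.91), the C-type lectin receptors Clec4a3 (0.89) and Clec4a1 (0.85), Ms4a6d (0.84) and Pla2g7, which encodes lipoprotein-associated phospholipase (0.83). Csf1r read 821 and 606 CPM in macrophages and 323 and 254 CPM in the monocyte gate. For Apoa1 no gene went past 0.64 (Cux1).

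Lipoprotein pathway genes in macrophages were counted from 4 lists. Of 15 receptor and uptake genes, 13 had at least 20 UMIs and 0 were past 2-fold, with a median of 0.03 against 0.15 over all genes. The scavenger receptor Cd36 read 622 CPM in WT and 635 CPM in KO. The lipid sensor Trem2 read 552 and 584 CPM, but it is also a macrophage gate gene, so its level depends on the gate. The scavenger receptor Msr1 read 312 and 231 CPM (-0.43, -0.49 to -0.37), and the Apoe receptor Lrp1 216 and 179 CPM (-0.27, -0.34 to -0.21). Of 14 efflux genes and their regulators, all 14 had enough UMIs and 0 were past 2-fold (median 0.03). Among them the cholesterol exporter Abca1, which loads Apoe and Apoa1 with lipid, read 1135 and 1251 CPM (0.14, 0.11 to 0.17), and Nr1h3, the liver X receptor that controls Apoe and Abca1, 300 and 168 CPM (-0.83, -0.90 to -0.77). Of 17 enzyme and assembly genes, 14 had enough UMIs, 3 were past 2-fold higher, each below 5 CPM, and 0 lower (median 0.09). Lipoprotein lipase (Lpl), the enzyme that Apoc2 activates, read 571 CPM in WT and 315 CPM in KO (-0.86, -0.90 to -0.81), and the phospholipid transfer protein Pltp 605 and 428 CPM.

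Of 16 other apolipoprotein genes, 7 had enough UMIs, 0 were past 2-fold higher and 1 lower (median 0.04). That gene was Saa3, an acute-phase apolipoprotein made by macrophages, at 173 CPM in WT and 5.94 CPM in KO (-4.85, -5.14 to -4.60). In the Kupffer subset it read 390 and 10.03 CPM, with a UMI in 33.9% and 7.42% of cells, and 5 cells held 35.0% of the WT UMIs. The monocyte gate read 276 and 71.9 CPM and B cells 11.6 and 5.68 CPM. Clusterin (Clu), the other gene of that list above 100 CPM, read 110 and 101 CPM in macrophages and 111 and 98.9 CPM in B cells.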

How the data were processed

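Per the labels' protocols, non-parenchymal cells were isolated from livers of both groups and made into 3' libraries with the Chromium Single Cell 3' v3 kit. The deposited values are counts of UMIs per gene and barcode. Cell Ranger is named as version 7.0.1 per the file headers and as 3.1.0 per the submitters' processing notes, which also name Seurat and mm10; the annotation and the handling of intronic reads are not given in the sources used here. The deposited barcodes all had at least 500 UMIs.

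Cells with under 200 genes or over 20% mitochondrial UMIs were removed, then the highest Scrublet scores, 0.8% of cells per 1000 cells (1034 WT and 1295 KO), because the automatic threshold marked 1 WT cell. A cell entered a class with at least 3 UMIs from at least 2 of its markers and at least 3 times the summed marker UMIs of any other class. Hepatocytes also needed at least 1% of their UMIs in their markers. Classes under 20 cells in either library were left out, except the hepatocyte gate, which was kept with its 16 WT cells. UMIs were summed per class, with exact Poisson, conditional binomial and Clopper-Pearson 95% intervals; 2-fold calls needed 20 UMIs. The members, gene lists and gates were chosen with earlier results of these data known. All members, list genes above 100 CPM in macrophages first, and the 5 most similar genes were named. The interval code was tested on simulated data. Alternatives changed the cell filters, doublets, gates, scaling, thinning, references and background class. Tools were Python 3.11.15, scanpy 1.11.5, scipy 1.17.1, numpy 2.4.6, leidenalg 0.10.2 and matplotlib 3.10.9.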

Additional observations from a re-analysis of the deposited data

Results flagged for a closer look

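Apoe differed between the libraries in opposite directions in 2 classes: KO over WT was 0.32 on the log2 scale in cDC1 (0.24 to 0.40), from 1269 to 1582 CPM, and -0.20 in the Gpnmb-Mmp12 subset (-0.21 to -0.19). The difference between these classes was not tested, since each rests on 1 library per genotype. In cDC1, C1q was higher in KO by 0.36 (0.23 to 0.50) and the hepatocyte reference by 1.26 (0.99 to 1.56). In the Gpnmb-Mmp12 subset, C1q differed by -0.08 (-0.09 to -0.06) and the hepatocyte reference by 1.17 (1.06 to 1.29). Their part in the Apoe differences was not tested. Apoc1 likewise read 0.67 higher in KO NK or ILC1 cells (0.05 to 1.30), from 41 and 51 UMIs, and -0.76 in the Gpnmb-Mmp12 subset (-0.87 to -0.65), again not tested. In NK or ILC1 cells the hepatocyte reference was higher in KO by 1.55 (1.24 to 1.88), and C1q differed by -0.06 (-0.22 to 0.09).

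Cells that no gate took held members above the WT level of the same cells. In ungated KO cells Apoe read 7554 CPM against 5786 CPM in WT, Apoa2 268 against 129 CPM, Apoc3 53.1 against 29.4 CPM, Apoc4 58.4 against 38.8 CPM, Apob 33.9 against 23.9 CPM and Apoh 18.8 against 16.1 CPM. Apoa1 (124 against 142 CPM) and Apoc2 (100.1 against 150 CPM) were lower in KO, and Apoc1 read 242 and 226 CPM. The hepatocyte reference read 1449 CPM in KO and 1293 CPM in WT, and C1q 2579 and 2159 CPM, in these cells; their part in the members' levels was not tested.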

How the results depend on the processing

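No paired analysis was possible because each genotype has 1 library, and leaving out a replicate was impossible for the same reason. Of 57 results, 6 were past 2-fold and changed direction under an alternative run. A change of direction was counted only for results past 2-fold in the main run. The other 51 therefore include levels and results below 2-fold that could not be counted, and they are no measure of stability. The 6 were multiples of the B cell ratio. Against C1q, macrophage Apoc1 gave 0.592 (WT) and 0.392 (KO), macrophage Apoc2 0.396 and 0.380 and Kupffer Apoc1 0.890 (KO). Against hepatocyte enzymes, which are the gate markers of hepatocytes, mesenchymal Apoc1 gave 0.928 (WT). C1q, NK or ILC1 cells as background, Hp left out and the expectation from both references were chosen after seeing the data. The cause of each shift was not tested.

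Macrophage Apoe (CPM, WT and KO) was 29337 and 29273 with the automatic doublet threshold, 29337 and 29092 with doublets kept, 29885 and 29582 with stricter filters, 28759 and 28682 with a gate dominance of 2, 30673 and 30825 with 5, 26948 and 25865 in Leiden classes, 29768 and 28276 thinned, 28789 and 27858 as a mean over cells, 29488 and 29244 without the 5 richest cells, and 29595 (WT) with Hp left out. Its log2 KO over WT was -0.0031 (automatic doublets), -0.0039 and 0.0071 (dominance 2 and 5), -0.059 (Leiden), -0.074 (thinned), -0.047 (mean over cells), -0.12 (median of ratios) and -0.062 (restricted total, without the members and hepatocyte, mitochondrial, ribosomal protein and haemoglobin genes). That of Apoc1 was -0.65 (Leiden), -0.47 (thinned), -0.41 (mean over cells), -0.68 (median of ratios), -0.62 (restricted total) and -0.61 (without the 5 richest cells). That of Apoc2 was -0.14 (thinned), -0.24 (mean over cells) and -0.45 (median of ratios). Among KO over WT ratios below 2-fold, some changed sign: Apoe in macrophages (dominance 5), monocytes, patrolling monocytes, B cells, endothelial and mesenchymal cells and cholangiocytes, Apoc1 in B cells and the remaining macrophages, and Apoc2 in B cells, patrolling monocytes, the Gpnmb-Mmp12 subset and the remaining macrophages, each under at least 1 alternative. The hepatocyte reference in B cells was 1.43 (automatic doublets), 1.59 (doublets kept) and 1.06 (dominance 2).

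Macrophage Apoe over the B cell ratio was, in WT, 18.3 and 18.00 (dominance 2 and 5), 14.5 (Leiden), 13.2 (thinned), 11.98 (mean over cells), 14.5 (over NK or ILC1 cells), 1683 (over hepatocytes) and 1.09 (C1q). In KO it was 18.9 (automatic doublets), 20.2 (doublets kept), 18.7 (dominance 5), 14.7 (Leiden), 14.9 (thinned), 13.96 (mean over cells), 18.8 (albumin alone), 21.3 (enzymes), 21.2 (over neutrophils), 16.4 (over NK or ILC1 cells), 899.6 (over hepatocytes) and 1.03 (C1q). Macrophage Apoc2 was 4.17 in WT as a mean over cells and 4.75 in KO thinned, 3.04 and 4.02 over neutrophils, 9.95 over WT NK or ILC1 cells, 35.2 and 31.95 over hepatocytes, and 7.86 in KO against enzymes. Without the filter on UMIs, 18.3% of genes in macrophages were past 2-fold. Low counts limit the 6 members other than Apoe, Apoc1 and Apoc2 outside hepatocytes, and the 16 WT hepatocytes limit every ratio taken from them. In KO, the 5 richest of the 44 hepatocytes held most UMIs of every member, which limits those ratios too.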
